A study of Mus musculus with 6 samples.

Results

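The genes described here carry glucose into the cell, split it to pyruvate, turn pyruvate to lactate or pass it to the mitochondrion. They were a named set of 34 genes, chosen by symbol for their place in the pathway: 3 glucose transporters, 9 enzymes of the hexose phosphate steps (down to triose phosphate isomerase), 8 enzymes of the triose steps to pyruvate, 4 genes of lactate formation and transport, and 10 genes of pyruvate entry. All 34 were in the table of 55487 gene IDs, and all 34 passed the filter on low counts that left 15666 genes for testing. Of the 34, Slc2a4, Pfkm, Pgam2 and Eno3 are forms typical of skeletal muscle and are called muscle forms below.

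Each sample was RNA of a whole graft of B16F10, a pigmented mouse melanoma line, grown under the tongue mucosa of immune-competent C57BL/6J mice, all labelled wild type. An AAV2/retro vector, which is carried backwards along axons, had been given in the cervical lymph nodes 6 weeks earlier, and its name carries Trpv1, the gene of the heat and capsaicin channel of nociceptors. The 2 vectors described were AAV2/retro-Trpv1-mCherry, with a red fluorescent protein, and AAV2/retro-Trpv1-hM4D(Gi)-mCherry, which adds an engineered receptor that quiets a neuron once its ligand binds. The ligand, Deschloroclozapine, was described as given 2 times per day for 12 days. The labels of the 3 inhibition samples name inhibition of nociceptive nerves that reach the nodes. The 3 control samples are labelled vehicle-treated, whereas the design text names the mCherry vector and the ligand for the series, so whether controls received the ligand was unclear. Whether each of the 6 samples is a different animal is not stated, and p-values therefore cover only the spread among these samples, which may be technical. The nerves acted on run to the lymph nodes, so the graft is a distant readout, and a graft in the tongue holds host cells beside tumour cells.

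Glycolysis splits glucose to pyruvate and yields ATP without oxygen. Many tumours run it fast and export the product as lactate, and hypoxia-inducible factor raises most of its genes when oxygen is low. Skeletal muscle runs the same pathway with its own forms of some enzymes and shares the others with other tissues. A graft that holds muscle fibres therefore mixes RNA of both sources. Pyruvate that is not made into lactate enters the mitochondrion through a carrier and is burned after the pyruvate dehydrogenase complex, which the pyruvate dehydrogenase kinases switch off.

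The 6 promoters printed next belong to the 4 members with the smallest p in the comparison, Pgk1, Pdk1, Eno1 and Ldha, and to 2 muscle forms, Eno3 and Pgam2, so that the members that were lower can be set beside those that were higher. Each is the 250 bases before a RefSeq transcription start on GRCm38.p6, read 5′ to 3′ on the gene's strand and holding no annotated exon, and where a gene had several such windows, the one with the most hypoxia cores is shown. Capitals mark ACGTG or GCGTG on either strand, the core of the site bound by hypoxia-inducible factor, and CAGCTG, a form of the E-box bound by myogenic factors. The windows are chrX:106186850-106187099 (plus strand), chr2:71872974-71873223 (plus), chr4:150236458-150236707 (plus), chr7:46845554-46845803 (plus), chr11:70656926-70657175 (plus) and chr11:5803797-5804046 (minus).
Pgk1: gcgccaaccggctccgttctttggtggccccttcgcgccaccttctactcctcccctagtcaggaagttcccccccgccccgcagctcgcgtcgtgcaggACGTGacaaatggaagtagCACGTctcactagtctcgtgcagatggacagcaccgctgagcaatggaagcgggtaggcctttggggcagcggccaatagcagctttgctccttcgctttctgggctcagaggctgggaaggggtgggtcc
Pdk1: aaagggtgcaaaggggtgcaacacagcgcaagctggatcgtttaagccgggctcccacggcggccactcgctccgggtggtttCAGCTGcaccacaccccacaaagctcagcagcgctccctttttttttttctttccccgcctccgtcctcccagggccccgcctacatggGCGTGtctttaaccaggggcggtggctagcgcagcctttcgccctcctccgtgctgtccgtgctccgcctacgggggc
Eno1: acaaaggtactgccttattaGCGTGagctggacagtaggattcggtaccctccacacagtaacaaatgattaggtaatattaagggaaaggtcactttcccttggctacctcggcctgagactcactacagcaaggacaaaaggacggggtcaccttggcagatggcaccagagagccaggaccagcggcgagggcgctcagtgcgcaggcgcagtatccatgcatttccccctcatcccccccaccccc
Ldha: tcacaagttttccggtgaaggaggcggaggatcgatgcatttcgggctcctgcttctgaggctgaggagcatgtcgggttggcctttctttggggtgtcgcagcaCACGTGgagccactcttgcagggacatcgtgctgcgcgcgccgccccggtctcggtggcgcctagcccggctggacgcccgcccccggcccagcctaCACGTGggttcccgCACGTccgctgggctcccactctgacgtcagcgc
Eno3: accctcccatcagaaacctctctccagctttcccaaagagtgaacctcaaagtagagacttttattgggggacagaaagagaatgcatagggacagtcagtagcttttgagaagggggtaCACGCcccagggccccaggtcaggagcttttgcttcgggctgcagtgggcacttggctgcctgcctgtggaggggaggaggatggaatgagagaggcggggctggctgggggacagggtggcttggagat
Pgam2: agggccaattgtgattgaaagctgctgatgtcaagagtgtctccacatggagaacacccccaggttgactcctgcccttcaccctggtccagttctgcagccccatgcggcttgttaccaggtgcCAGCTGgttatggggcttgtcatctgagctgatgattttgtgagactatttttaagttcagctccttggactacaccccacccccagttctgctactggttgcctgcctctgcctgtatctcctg
The Pgk1 window held 2 hypoxia cores, beginning 150 and 131 bases before the start, and the Ldha window held 3 marked stretches between 145 and 34 bases before it. Of these stretches 2 are CACGTG, which reads as a core on both strands, and counting strands separately gives 5 cores. Pdk1 had 1 core, 78 bases before the start, and 1 CAGCTG. The Eno1 window shown had 1 core, 230 bases before the start, while the other 2 of the 3 Eno1 windows, which overlap each other and hold part of an annotated exon, had 2 cores each. Eno3 had 1 core, at 130 bases, and Pgam2 had 0 cores and 1 CAGCTG.

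RefSeq windows were found for 32 of the 34 members, all but Slc2a3 and Slc2a4. The core ACGTG or GCGTG stood in at least 1 window of 26 of the 32 (81.2%), against 41.5% of 27027 genes. Per window the shares were 71.7% of 46 and 38.6% of 32851. The core stood in 66.7% of 6 windows of the muscle forms, but 4 of these windows belong to Pfkm and some of them overlap. For the 14 glycolysis enzymes from hexokinase to pyruvate kinase that are not muscle forms, it stood in 71.4% of 21 windows. By gene, 2 of the 3 muscle forms with a window and 11 of the 14 enzymes held the core. These are too few genes to compare the shares. The core contains a CG pair, and member windows held a median of 14 CG pairs against 6 in all windows. CAGCTG stood in a window of 15.6% of the 32 members and 14.7% of all genes. CAGCTG was added after the values were seen. A match is a description of letters in this window and not a bound site.

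The comparison asked how the members differed between inhibition and control grafts, and the values differed by form. Most transporters, enzymes and lactate genes that are not muscle forms stood lower in the inhibition grafts, with a fold of 0.711 for Pgk1, 0.762 for Ldha and 0.686 for Slc16a3, while the 4 muscle forms stood at folds of 1.27 to 2.09. Of the 34 members, 25 lay below 0 and 9 above 0 on the log2 scale (median -0.21), against 49% negative, 51% positive and a median of 0.00485 over all 15666 genes. No member passed at an adjusted p under 0.05 in the quasi-likelihood test of edgeR (0 of 34), where 0.00638% of all genes were called lower and 0.0319% higher. At an unadjusted edgeR p under 0.05 the count was 17 members on the lower side, with a background of 7% of genes, and 3 on the higher side, with a background of 8.36%. In 18 of the 34 members the 3 inhibition libraries lay below the 3 controls (background 11%), and in 1 they lay above (background 10.2%).

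Other tests gave other counts. With Benjamini-Hochberg adjustment DESeq2 called 8 members lower (Slc2a1, Tpi1, Gapdh, Pgk1, Eno1, Ldha, Slc16a3 and Pdk1), with a background of 1.3% of genes, and 1 higher (Pgam2), with a background of 2.37%. limma-voom called 0 members and 0 genes, and edgeR on the unfiltered table called 12 members lower and 3 higher, among 439 genes lower (1.52% of 28841 tested) and 748 higher (2.59%). Leaving out inhibition 3, edgeR called Eno1 lower (adjusted p = 0.0409) and Slc2a4, Pfkm and Pdk2 higher (adjusted p = 0.0432, 0.0413 and 0.0421), with a background of 0.296% of 15890 genes lower and 1.07% higher. For single genes below, the adjusted p is that of edgeR over all genes tested, and log2 fold changes (inhibition over control) carry their standard error.

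**Figure D1:**
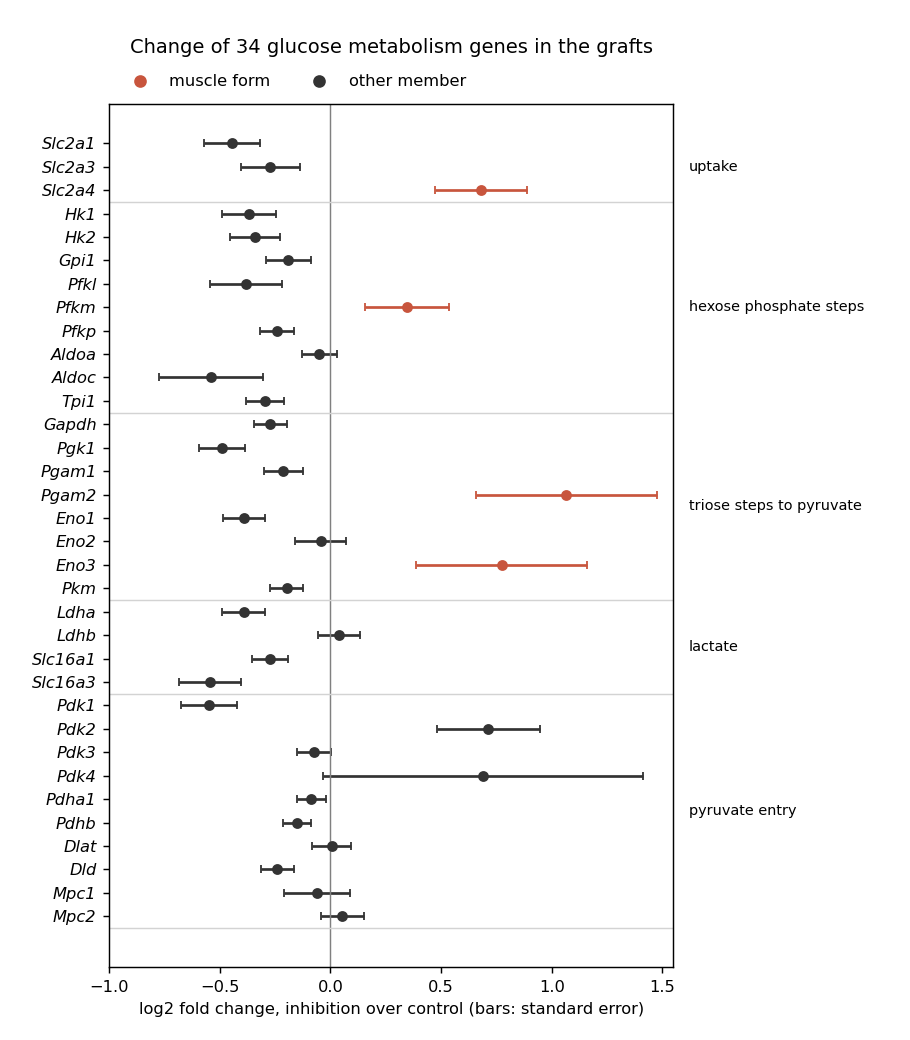
The x axis gives the log2 fold change of inhibition over control for each of the 34 members, with bars for its standard error, and rows are grouped by role. The 4 muscle forms lie between 0.35 and 1.07, all to the right of 0, and most other members lie between -0.55 and 0.

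Levels of cell type markers were also compared between the groups, and edgeR called 0 of these markers in either direction. Library totals ran from 14477277 to 20972494 counts, and the 34 members took 2.87 to 3.15% of the counts in controls and 2.33 to 2.67% in inhibition grafts. The label was checked with 12 melanoma markers, all of which passed the filter. CPM is a count divided by the TMM-scaled library total, with 1 count worth 0.0476 to 0.0701. These markers summed to 16989, 24911 and 25309 CPM in controls 1 to 3 and to between 24123 and 29634 CPM in inhibition grafts. Their median log2 fold change was 0.19, with 11 positive and 1 negative. Over the 6 libraries Pmel ran between 2875 and 5441 and Tyrp1 between 4515 and 10757 CPM, with control 1 the lowest for both. Of 22 skeletal muscle markers, 21 were tested, with positive log2 fold changes in all 21 (median 1.33), with sums of 954 to 2225 CPM in controls and 2610 to 4637 in inhibition grafts. Acta1, the actin of skeletal muscle, ran from 263 to 504 CPM in controls and from 723 to 1004 in inhibition grafts, and Ckm, muscle creatine kinase, from 23.7 to 75.5 and from 53.8 to 138. Neutrophil markers (9 of 10 tested, median log2 fold change -2.26) summed to between 40.02 and 100.7 CPM in controls and between 9.6 and 32.7 in inhibition grafts. Squamous epithelium (11 tested) had a median of 0.69, fibroblasts (8) 0.65, endothelium (7) 0.44, macrophages (10) 0.40, adipocytes (2) 0.19 and red blood cells (5) -0.15, and 0 of 8 T and NK cell markers and 0 of 7 salivary gland markers passed the filter. In a whole graft, fewer cells of a type and less RNA per cell cannot be told apart.

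Glucose enters through the transporters. Slc2a1 encodes GLUT1, the transporter of most tumours and a hypoxia target, and stood at 200, 185 and 189 CPM in controls 1 to 3 and at 111, 151 and 159 CPM in inhibition 1 to 3. All 3 inhibition libraries were below the lowest control (log2 fold change -0.44 ± 0.13, a fold of 0.735, adjusted p = 0.196). Slc2a3 encodes GLUT3, a high-affinity transporter of neurons and leukocytes, and ran from 27.7 to 33.6 CPM in controls and from 21.7 to 29.8 CPM in inhibition grafts, so the groups overlapped (-0.27 ± 0.14, 0.369). Slc2a4 encodes GLUT4, the insulin-responsive transporter of muscle and fat, and stood at 9.11, 8.003 and 7.94 CPM in controls and 14.8, 16.1 and 9.34 CPM in inhibition grafts. It was the 1 member whose inhibition libraries all lay above the controls, with inhibition 3 only just above (0.68 ± 0.21, a fold of 1.60, adjusted p = 0.214). Per kb of annotated exon, Slc2a1 made up 89.3 ± 0.555% of these 3 transporters in controls and 84.3 ± 2.82% in inhibition grafts (SD, n = 3 per group), and Slc2a4 3.92 ± 0.14% and 8.38 ± 2.96%. Exon length here and below is that of all annotated exons of a gene together. It can exceed the length of the transcript expressed, so shares and ranks between genes are uncertain.

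Hexokinase traps glucose as glucose 6-phosphate. Hk1, the form of most tissues, stood at 577, 442 and 473 CPM in controls and at 379, 338 and 439 CPM in inhibition grafts, and Hk2, the form raised in many tumours and also present in muscle, at 279, 331 and 298 and at 202, 272 and 243 CPM. Neither overlapped between the groups, although inhibition 3 lay just under control 2 for Hk1. On the log2 scale Hk1 was at -0.37 ± 0.12 (adjusted p = 0.233) and Hk2 at -0.34 ± 0.11 (0.228). Gpi1, which turns glucose 6-phosphate to fructose 6-phosphate, ran from 1621 to 1951 CPM in controls and 1485 to 1790 CPM in inhibition grafts, with overlap (-0.19 ± 0.10, 0.398).

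Phosphofructokinase commits the sugar to glycolysis, and its 3 forms differed in direction. Pfkl, the liver form, stood at 543, 535 and 748 CPM in controls and 388, 526 and 487 CPM in inhibition grafts (log2 fold change -0.38 ± 0.16, adjusted p = 0.323). Pfkp, the platelet form, stood at 411, 444 and 447 CPM and at 349, 357 and 395 CPM (-0.24 ± 0.077, 0.222). In both forms every inhibition library lay below every control. Pfkm, the muscle form, stood at 77.9, 76.3 and 68.9 CPM in controls and at 99.5, 117 and 67.7 CPM in inhibition grafts, so that inhibition 1 and 2 were above the controls and inhibition 3 was the lowest of the 6 libraries (0.35 ± 0.19, 0.422). On the scale per kb of exon Pfkm was 15.5 ± 2.66% of the 3 forms in controls and 22.5 ± 5.23% in inhibition grafts.

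Aldolase and triose phosphate isomerase close the hexose steps. Aldoa, the aldolase of muscle and of most tumours, stood at 2304, 2536 and 2699 CPM in controls and at 2382, 2501 and 2395 CPM in inhibition grafts (log2 fold change -0.051 ± 0.080, adjusted p = 0.786), and control 1 was the lowest library. Aldoc, the brain form and a hypoxia target, had an overlap between the groups, with 126, 76.8 and 87.2 CPM in controls and 62.2, 82.9 and 54.5 CPM in inhibition grafts (-0.54 ± 0.23, 0.342). Tpi1, triose phosphate isomerase, stood at 2714, 2712 and 3105 CPM in controls and 2138, 2378 and 2435 CPM in inhibition grafts, without overlap (-0.30 ± 0.087, 0.200).

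The triose steps yield ATP and NADH. Pgk1, phosphoglycerate kinase, had the smallest p of the 34 members. It stood at 3200, 2700 and 3202 CPM in controls and at 1890, 2282 and 2302 CPM in inhibition grafts, a fold of 0.711 (log2 fold change -0.49 ± 0.10, unadjusted p = 0.000957, adjusted p = 0.160). Gapdh, which makes NADH, stood at 766, 723 and 774 CPM and at 619, 587 and 668 CPM (-0.27 ± 0.075, 0.186). Both genes separated the groups, with control 2 the lowest control each time. Gapdh is often used as a reference gene, and here its 3 inhibition libraries were all below its controls. Per kb of exon its control level was 183 CPM against 1352 for Pgk1, with 4.13 and 2.24 kb of annotated exon. That level is uncertain, since the length counts all annotated exons and Gapdh has many near-identical copies. How reads of copies were assigned is not given in the sources used here.

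Phosphoglycerate mutase and enolase come as pairs of a general and a muscle form. Pgam1, the general mutase, stood at 738, 706 and 857 CPM in controls and 641, 650 and 693 CPM in inhibition grafts, without overlap (log2 fold change -0.21 ± 0.087, adjusted p = 0.293). Pgam2, the muscle mutase, stood at 7.48, 13.7 and 7.21 CPM and at 22.8, 25.9 and 10.5 CPM (1.07 ± 0.41, a fold of 2.09, adjusted p = 0.298). Control 2 was above inhibition 3 for Pgam2, so the groups overlapped. Eno1, the general enolase and with Pkm one of the 2 most counted members, stood at 7240, 6511 and 7156 CPM in controls and 4916, 5003 and 6022 CPM in inhibition grafts, without overlap (-0.39 ± 0.097, a fold of 0.762, adjusted p = 0.167). Eno3, the muscle enolase, stood at 34.8, 49.6 and 30.5 CPM and at 73.4, 87.7 and 35.2 CPM (0.77 ± 0.39, 0.407), again with control 2 above inhibition 3. Eno2, the enolase of neurons, ran from 23.8 to 25.3 CPM in controls and from 19.97 to 25.8 CPM in inhibition grafts (-0.044 ± 0.12, 0.875).

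Pyruvate kinase ends the pathway. Pkm stood at 5018, 4740 and 4979 CPM in controls and 4261, 4056 and 4534 CPM in inhibition grafts, without overlap (log2 fold change -0.20 ± 0.075, adjusted p = 0.266); its counts pool the splice forms of muscle and tumour. The glycolysis enzymes from hexokinase to pyruvate kinase that are not muscle forms number 14. Some of them, such as Aldoa, Hk2 and Pkm, are also expressed in muscle, so this group is not free of muscle RNA. All 14 had a negative log2 fold change (median -0.28), with a background of 49% of genes. In 10 the groups did not overlap, with inhibition below (background 11%). edgeR called 0 of them, and 10 had an unadjusted p under 0.05 on the lower side (background 7%). The summary of these 14 was not set out in advance. The count of negative values was 13 of 14 without inhibition 1, where Eno2 was at 0.051, and 13 with the muscle level as a covariate, where Gpi1 was at 0.11. Per kb of exon the 6 most abundant members in controls were Pgk1 (1352 CPM), Eno1 (1296), Tpi1 (1033), Pkm (982), Aldoa (863) and Ldha (830), and in inhibition grafts Eno1 (988), Pgk1 (962), Pkm (857), Tpi1 (842), Aldoa (833) and Ldha (633). This order depends on the exon lengths used. Without the division, mean control CPM was 6969 for Eno1 and 3034 for Pgk1.

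**Figure D2:**
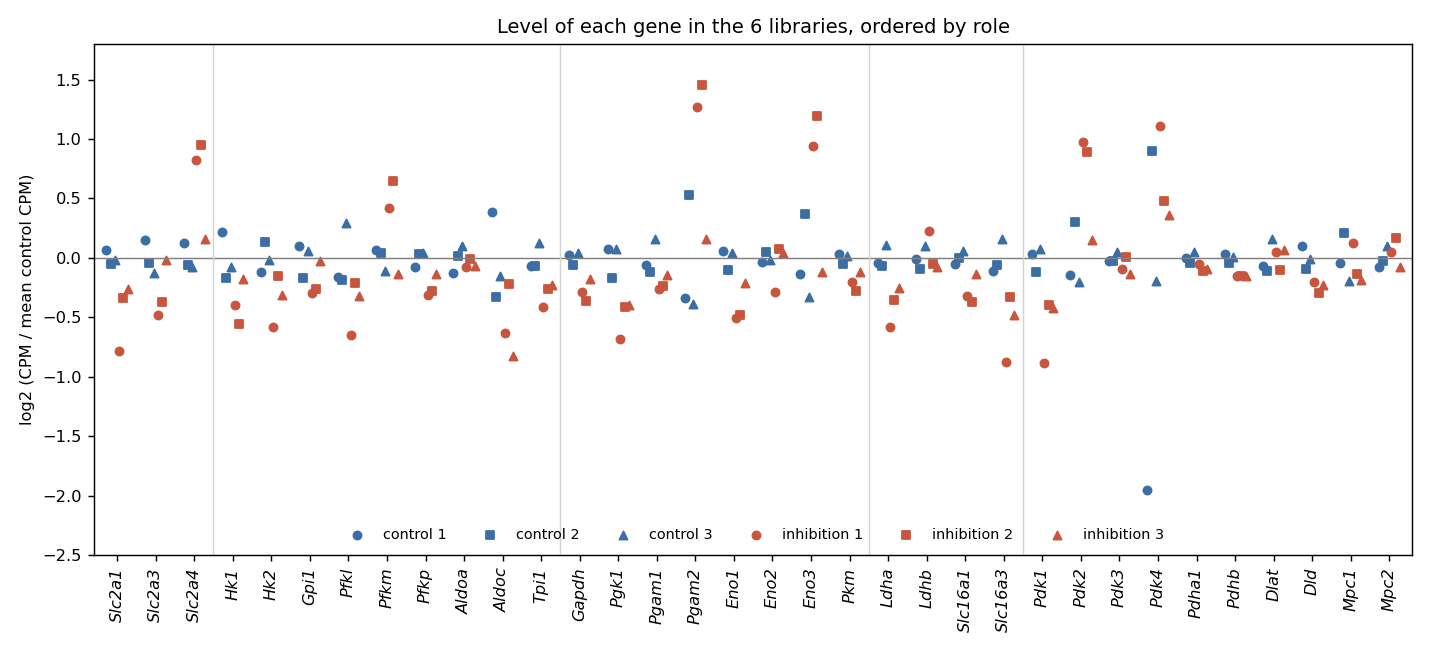
The y axis gives each member's CPM in each of the 6 libraries as the log2 ratio to the mean of the controls, with blue for control and red for inhibition and 1 symbol per replicate number. Red points of most enzymes lie under the blue ones, whereas for Slc2a4, Pfkm, Pgam2 and Eno3 inhibition 1 and 2 lie above all controls and inhibition 3 lies among them or close by.

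Lactate dehydrogenase turns pyruvate to lactate and back. Ldha, the form that favours lactate and a hypoxia target, stood at 2669, 2623 and 2955 CPM in controls and 1834, 2150 and 2302 CPM in inhibition grafts, without overlap (log2 fold change -0.39 ± 0.098, a fold of 0.762, adjusted p = 0.171). Ldhb, the form of heart and oxidative tissue, stood at 467, 441 and 504 CPM and at 550, 454 and 447 CPM, with overlap (0.038 ± 0.097, 0.871). Per kb of exon Ldhb was 26.5 ± 0.398% of the pair in controls and 32.9 ± 5.18% in inhibition grafts (SD, n = 3 per group).

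Lactate leaves the cell through monocarboxylate transporters. Slc16a3 encodes MCT4, the exporter of glycolytic cells and a hypoxia target, and stood at 203, 210 and 245 CPM in controls and at 119, 175 and 158 CPM in inhibition grafts. Its groups did not overlap (log2 fold change -0.54 ± 0.14, a fold of 0.686, adjusted p = 0.186). Slc16a1 encodes MCT1, which carries lactate both ways, and stood at 122, 126 and 132 CPM and at 101.4, 97.6 and 116 CPM, also without overlap (-0.27 ± 0.081, 0.204). Bsg, the chaperone that brings both transporters to the membrane and no member of the set, ran from 1027 to 1147 CPM in controls and from 894 to 1052 in inhibition grafts (-0.12 ± 0.085, 0.514).

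Pyruvate dehydrogenase kinases switch off the pyruvate dehydrogenase complex, and the 4 of them differed in direction. Pdk1, the kinase raised by hypoxia, had the most negative log2 fold change of the 34 members, with 157, 141 and 161 CPM in controls and 82.8, 116 and 114 CPM in inhibition grafts (-0.55 ± 0.13, a fold of 0.684, adjusted p = 0.166). Every inhibition library lay below every control. Pdk2, a kinase abundant in muscle and heart, stood at 10.1, 13.7 and 9.68 CPM and at 21.9, 20.7 and 12.4 CPM, with control 2 above inhibition 3 (0.71 ± 0.23, 0.228). Pdk4, the kinase induced by fasting in muscle, stood at 11.2, 81.1 and 37.8 CPM in controls and 93.7, 60.4 and 55.7 CPM in inhibition grafts. Its highest control was 7.22 times its lowest, and the standard error was larger than the log2 fold change (0.69 ± 0.72, 0.687). Pdk3 ran from 49.6 to 52.5 and from 46.0 to 50.7 CPM (-0.075 ± 0.078, 0.668). Per kb of exon Pdk1 was 36.5 ± 8.03% of the 4 kinases in controls and 23.5 ± 5.81% in inhibition grafts.

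The complex itself and its carrier had log2 fold changes between -0.24 and 0.052. Pdha1 and Pdhb, the subunits of the first enzyme of the complex, stood at 151 to 161 and 137 to 145 CPM in controls and at 144 to 150 and 127.0 to 127.3 CPM in inhibition grafts. Neither overlapped (-0.087 ± 0.065, adjusted p = 0.536, and -0.15 ± 0.064, 0.304). Dld, the dehydrogenase shared with other complexes, stood at 211 to 242 and 184 to 196 CPM, without overlap (-0.24 ± 0.075, 0.216). Dlat, the acetyltransferase core, overlapped (0.0048 ± 0.090, 0.986). Mpc1 and Mpc2, which form the mitochondrial pyruvate carrier, also overlapped (-0.060 ± 0.15, adjusted p = 0.869, and 0.052 ± 0.097, 0.820).

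Ratios of forms within a library do not depend on how libraries are scaled, and 12 were compared. The log2 ratio of Eno3 to Eno1 was -7.70, -7.03 and -7.87 in controls and -6.06, -5.83 and -7.42 in inhibition grafts, a difference in means of 1.10. That of Pgam2 to Pgam1 differed by 1.23, Pfkm to Pfkl by 0.69 and Pfkm to Pfkp by 0.56, and in each of these 4 ratios control 2 was above inhibition 3. The ratio of Slc2a4 to Slc2a1 was -4.44, -4.51 and -4.55 in controls and -2.90, -3.22 and -4.08 in inhibition grafts, without overlap (difference 1.10). Ldhb to Ldha (-2.51, -2.57 and -2.55 against -1.74, -2.24 and -2.36, difference 0.43) and Eno2 to Eno1 (difference 0.34) also did not overlap. The differences were 0.18 for Slc2a3 to Slc2a1, 0.019 for Hk2 to Hk1, -0.48 for Aldoc to Aldoa, -0.28 for Slc16a3 to Slc16a1 and 1.63 for Pdk4 to Pdk1, all with overlap. A 2-sided exact permutation test with 3 samples against 3 cannot go below 0.1, the value reached by the 3 ratios without overlap, and the Benjamini-Hochberg adjusted p over the 12 exact tests was 0.327 for 11 ratios and 1 for Hk2 to Hk1.

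**Figure D3:**
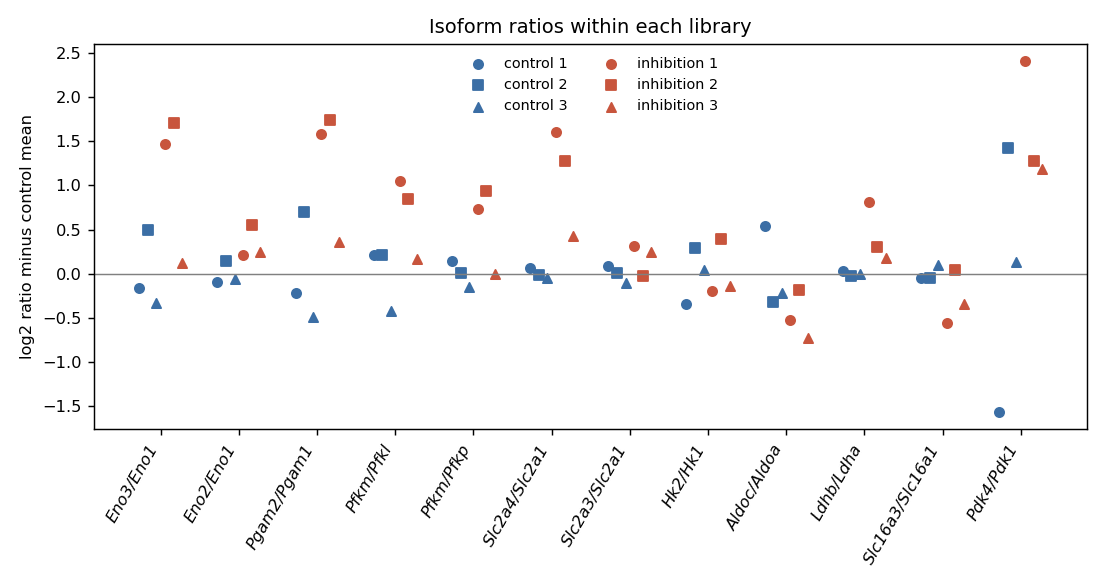
For each of 12 pairs of forms the y axis gives the log2 ratio in each library less the mean of the controls, blue for control and red for inhibition. In Slc2a4/Slc2a1, Ldhb/Ldha and Eno2/Eno1 the 3 red points lie above the 3 blue ones, and Pdk4/Pdk1 has the widest spread among controls.

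The muscle forms and the muscle markers were compared library by library. The mean log2 level of the 21 tested muscle markers, less the mean of the controls, was -0.62, 0.81 and -0.20 in controls 1 to 3 and 1.81, 1.63 and 0.75 in inhibition 1 to 3. That of the 4 muscle forms was -0.05, 0.24 and -0.20 in controls and 0.88, 1.08 and 0.04 in inhibition grafts, so control 2 and inhibition 3 overlapped in both. For the 14 other glycolysis enzymes the level was 0.02, -0.08 and 0.06 in controls and -0.39, -0.25 and -0.22 in inhibition grafts, without overlap. With the level of the muscle markers as a covariate, which itself differs between the groups and leaves few degrees of freedom, the log2 fold changes were -0.24 for Eno3, -0.16 for Pgam2, -0.011 for Pfkm and 0.37 for Slc2a4. Those of Pdk2 and Pdk4, 0.71 and 0.69 without it, were -0.031 and -0.71. The median of the 14 enzymes was -0.15, with Pgk1 at -0.23, Ldha at -0.23, Eno1 at -0.15 and Slc16a3 at -0.44, and 0 genes of the whole table were called by edgeR, and Hk2 was the 1 member with an unadjusted p under 0.05. Neutrophil markers were lower in the same inhibition grafts, and what part they had in the enzyme values was not tested.

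**Figure D4:**
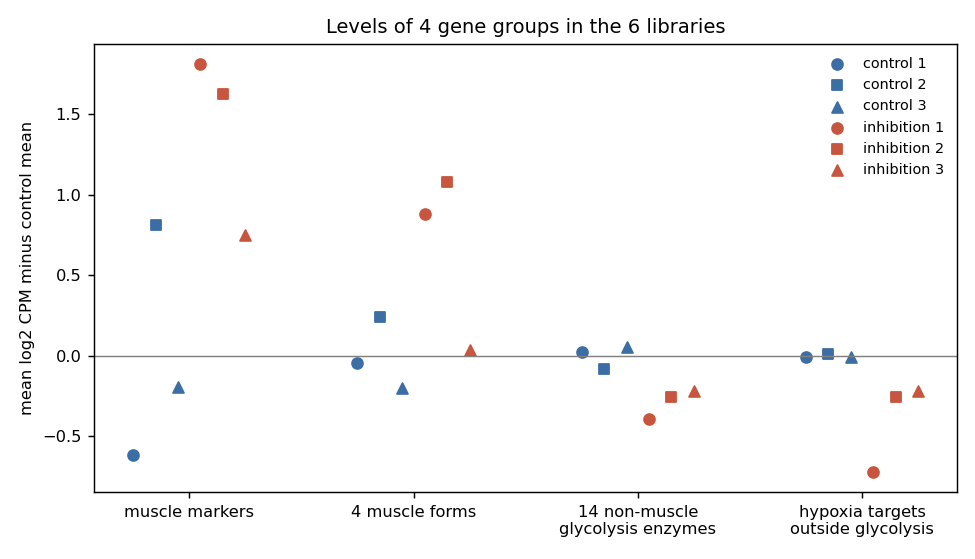
The y axis gives the mean log2 CPM of 4 gene groups in each library, less the mean of the controls, blue for control and red for inhibition. Control 2 (0.81) and inhibition 3 (0.75) meet for the muscle markers, while all red points lie under the blue ones for the 14 enzymes and the hypoxia targets.

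Other genes of the pathway were split in direction. Of 41 further genes of sugar transport, glycolysis, lactate and pyruvate, 32 were tested, with 16 negative and 16 positive log2 fold changes (median -0.00409). edgeR called 0 of them. At its unadjusted p under 0.05, 4 were on the lower side (background 7% of genes) and 1 on the higher (background 8.36%). A phosphoglucomutase gene, Pgm1, stood at 353 to 387 CPM in controls and 246 to 304 CPM in inhibition grafts (-0.42 ± 0.090, adjusted p = 0.162). Slc2a9, a urate transporter of the glucose transporter family, had a log2 fold change of -0.94 ± 0.33 and Pdpr, a regulator of pyruvate dehydrogenase phosphatase, -0.34 ± 0.12 (adjusted p = 0.237 and 0.238). Slc2a10 went the other way, from 0.543 to 1.11 CPM in controls and 2.10 to 2.43 in inhibition grafts (1.41 ± 0.34, 0.166). Txnip, a sensor that lowers glucose uptake, overlapped (0.10 ± 0.14, 0.758).

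The neighbouring pathways had medians near 0, apart from hypoxia targets. Of 16 pentose phosphate and glycogen genes 0 were called by edgeR (median -0.06). At its unadjusted p under 0.05, 6 were on the lower side (background 7%) and 1 on the higher (background 8.36%). Pygl, liver glycogen phosphorylase, had a log2 fold change of -0.62 ± 0.18 (adjusted p = 0.194). The glycogen branching enzyme Gbe1 was at -0.32 ± 0.091 (0.198) and the glycogen synthase Gys1 at -0.31 ± 0.091 (0.204). Ppp1r3c, a glycogen-targeting subunit of a phosphatase, was at 1.47 ± 0.46 (0.220). Its levels were low, with 0.483 to 1.17 CPM in controls and 1.43 to 3.69 CPM in inhibition grafts. Of 20 tricarboxylic acid cycle genes 0 were called by edgeR (median -0.03). On the lower side 2 had an unadjusted p under 0.05 (background 7%), the succinate dehydrogenase genes Sdhb (-0.24 ± 0.068, adjusted p = 0.186) and Sdhd (-0.26 ± 0.087, 0.228).

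Of 19 tested hypoxia targets outside glycolysis, 17 were negative (background 49%), with a median of -0.41, and 0 were called by edgeR. At its unadjusted p under 0.05, 10 were on the lower side (background 7%) and 1 on the higher (background 8.36%). The mean level of the 19 was -0.00391, 0.01 and -0.00625 in controls and -0.72, -0.25 and -0.22 in inhibition grafts. Inhibition 1 was the lowest library here as for the 14 enzymes. Bnip3l, a mitophagy receptor, had a log2 fold change of -0.54 ± 0.11 (adjusted p = 0.160). Ak4, a mitochondrial adenylate kinase, was at -0.74 ± 0.16 (0.166) and Ankrd37 at -1.18 ± 0.32 (0.186). Levels of Ankrd37 were low, with 2.95 to 3.97 CPM in controls and 0.981 to 2.05 CPM in inhibition grafts. Lox, which cross-links collagen, stood higher (0.60 ± 0.22, 0.275). Of 15 regulators of these genes 0 were called by edgeR (median -0.06), and 1, on the lower side, had an unadjusted p under 0.05 (background 7%). It was Vhl, which marks hypoxia-inducible factor for destruction, with 58.9 to 64.5 CPM in controls and 42.9 to 48.8 CPM in inhibition grafts (-0.44 ± 0.083, adjusted p = 0.122).

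Some members have copies elsewhere or share exon bases with other genes, and whether reads were shared was not tested. Eno1b, a near-identical copy of Eno1, held 0.994% of the counts of Eno1 and had a log2 fold change of -0.70 ± 0.12 (adjusted p = 0.0997). Gapdh-ps15 held 2.78% of the counts of Gapdh, Pgam1-ps2 1.66% of Pgam1, Pgk1-rs7 0.82% of Pgk1, Tpi-rs11 0.797% of Tpi1 and Ldha-ps2 0.181% of Ldha, and all had negative log2 fold changes, between -0.20 and -0.44. Transcripts of the opposite strand covered 23.1% of the exon bases of Mpc1, 16.1% of Pdha1 (Map3k15), 11.5% of Gpi1 and 5.58% of Pfkp (Pitrm1). On the same strand, 15.3% of Pkm and 10.2% of Pfkm overlapped other annotated transcripts. The strand setting of the counting is not given in the sources used here, so these values are uncertain to that extent.

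On GRCm38 the members of the muscle pairs lie apart and are all protein-coding: Eno1 (ENSMUSG00000063524) on chromosome 4 from 150236721 to 150248879 and Eno3 (ENSMUSG00000060600) on chromosome 11 from 70657202 to 70662513, Pgam1 (ENSMUSG00000011752) on chromosome 19 from 41911923 to 41918660 and Pgam2 (ENSMUSG00000020475) on chromosome 11 from 5801640 to 5803733. Pgk1 (ENSMUSG00000062070) lies on chromosome X from 106187100 to 106203699, Ldha (ENSMUSG00000063229) on chromosome 7 from 46841475 to 46855627 and Pdk1 (ENSMUSG00000006494) on chromosome 2 from 71873224 to 71903858.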

How the data were processed

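The deposited file gives whole-number read counts for each Ensembl gene in 6 libraries, 1 column each, and its values show no normalization by the authors. Alignment with HISAT2 2.0 to mm10 is stated per the submitters' processing notes, while the counter, annotation and strand setting are not given in the sources used here. Columns were matched to samples by name (those named for nociceptive denervation are the inhibition samples), and 0 columns were left unused. Symbols, positions and exon lengths came from GENCODE M21 on GRCm38, with exon length the union of all annotated exons of a gene. The 260 IDs without a symbol held 0.00197% of the counts. Where 2 IDs share a symbol (Aldoa), the one with more counts was taken.

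Genes were kept with filterByExpr (count minimum 10, total minimum 15), scaled with TMM and tested with edgeR 4.0.16 in R 4.3.3 (quasi-likelihood, robust, no covariate), with Benjamini-Hochberg adjustment over 15666 genes and a threshold of 0.05. Standard errors were computed as |log2 fold change| / √F. One count was worth 0.0476 to 0.0701 CPM. Log2 levels used a prior count of 2. The fit was tested on simulated data whose changes were larger than those of most members. That test therefore does not show how well changes of the members' size are found.

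The members and lists were chosen with earlier results of these data known. The naming rule covered all 34 members, up to 3 genes per direction of each pathway list at an unadjusted p under 0.05 (smallest p first), Bsg, Txnip, Ckm, Acta1, Pmel and Tyrp1; the copies Eno1b, Gapdh-ps15, Pgam1-ps2, Pgk1-rs7, Tpi-rs11 and Ldha-ps2 were added after the values were seen. Alternatives were RLE and upper-quartile factors, scaling without host tissue genes, no filter and a stricter filter (1 CPM), limma-voom 3.58.1, DESeq2 1.42.0, a replicate block, the muscle level as a covariate, each library left out, an adjusted p under 0.1, and a prior count of 0.5 for the ratios.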

Additional observations from a re-analysis of the deposited data

How the results depend on the processing

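Without the filter on low counts edgeR called 12 members lower and 3 higher (1187 genes in all), DESeq2 8 and 1 (541), limma-voom 0 genes, and an adjusted p under 0.1 gave 33 genes with 0 members. An unadjusted p under 0.05 gave 17 members lower, 3 higher and 2407 genes. With the replicate block 14 genes and 0 members were called, and 5 members were higher at an unadjusted p under 0.05. To check for pairing, the log2 CPM of each tested gene less its group mean was correlated between control and inhibition libraries. The correlations were -0.18, 0.33 and 0.09 for same-numbered libraries and from -0.39 to 0.30 for the others. The numbers were therefore not taken to pair the samples. With the muscle covariate edgeR called 0 genes (at an unadjusted p under 0.05, 298 on the lower and 199 on the higher side, with 1 and 0 members), and the medians were -0.13 for the 34 members, -0.15 for the 14 enzymes and -0.088 for the 4 muscle forms. Leaving out each library gave 0 to 217 genes called, 0 to 1 members called lower, 0 to 3 higher, 13 to 19 members on the lower and 0 to 5 on the higher side at an unadjusted p under 0.05, and medians of -0.26 to -0.18 for the members, -0.34 to -0.23 for the enzymes and 0.50 to 0.97 for the muscle forms. Calls came without control 1 (11 genes), control 2 (24) and inhibition 3 (217), and 0 remained without control 3, inhibition 1 or inhibition 2. These counts changed with the setting, and the cause was not tested.

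Of the 34 members 22 kept their sign in all 15 alternative fits. Under the muscle covariate the sign turned for Slc2a3 (0.025), Gpi1 (0.11), Pfkm (-0.011), Pgam2 (-0.16), Eno3 (-0.24), Ldhb (-0.0012), Pdk2 (-0.031), Pdk4 (-0.71) and Mpc2 (-0.043). Dlat turned with host tissue genes left out of the scaling (-0.0036) and with no filter (-0.0066). With each library left out in turn, Dlat ran from -0.062 to 0.087 and was below 0 without control 1, control 2, inhibition 1 or inhibition 3. Ldhb ran from -0.074 (without inhibition 1) to 0.084 and was -0.023 without control 2. Eno2 ran from -0.12 to 0.051 (without inhibition 1), Mpc1 from -0.17 to 0.039 (without control 2) and Mpc2 from -0.020 (without inhibition 2) to 0.10. Depth limited none of the members to fewer than 123 counts in a library.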
